A study of Mus musculus with 8 samples.

Results

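The genes that make, load, take up and break down the transmitter GABA, and the 2 chloride carriers that set the neuronal response to it, were followed in the medial ganglionic eminence (MGE) of WT and Nkx2-1cKO mouse embryos. The 7 genes Gad1, Gad2, Slc32a1, Slc6a11, Abat, Slc12a2 and Slc12a5 were chosen by name, and their probes were found by RefSeq accession. They are 7 of the 17178 genes that could be named on the array. They had 10 probes, 2 each for Gad1, Gad2 and Slc6a11 and 1 for each of the other 4 genes. All 10 probes passed the filter on dim signal, and 9 of them were well above background on all 8 arrays.

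The tissue was dissected at E13.5 from C57BL/6 embryos, and its amplified, Cy3-labelled RNA was read on 1-colour Agilent arrays, 1 array for each of 4 WT and 4 Nkx2-1cKO samples. The labels give the WT samples the genotype Nkx2-1flox/+;Olig2tva-cre-, so that the controls also carry a floxed allele, and the mutant samples Nkx2-1flox/+;Olig2tva-cre+. This is a heterozygous floxed genotype, although the titles call these samples KO. The Cre is expressed from Olig2 regulatory sequence and therefore acts in Olig2-lineage cells of the tissue, and the labels do not say whether a sample is 1 embryo or a pool, so that p-values measure only the spread between these samples. The dissected MGE holds dividing progenitors, newly born neurons and cells passing through, and in such bulk tissue fewer cells of a type and less RNA per cell cannot be told apart.

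Expression is given as the log2 signal of a probe relative to the 75th percentile of its array, so that 1 unit is a doubling, and differences are Nkx2-1cKO minus WT. Nkx2-1 itself read between 1.82 and 1.95 on the WT arrays and between -4.66 and -4.26 on the Nkx2-1cKO arrays, which left 1.24% of the WT level (limma, adjusted p = 4.67e-09). So low a level goes with the titles and against the heterozygous genotype in the labels, and the genotype was not settled here. The share of the 41174 probes that stood well above background ran from 71.1% to 79.5%, and no spot was flagged as saturated. All permutation tests given here are exact and two-sided, and with 4 arrays in each group their p cannot be lower than 0.0286. The arrays lay on 2 slides, each with 2 WT and 2 Nkx2-1cKO samples. WT replicate 1 stood apart. With the probes split into 5 equal classes by brightness, its dimmest class read 1.42 above the median of the other arrays and its brightest -0.04 from it. Its classes 2 and 3 counted from the dimmest read 1.22 and 0.28 above that median. The probes of Gad1, Gad2, Slc32a1, Abat and Slc12a5 lie in the brightest class, that of Slc12a2 in the next, and those of Slc6a11 in classes 3 and 2 counted from the dimmest.

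GABA is made from glutamate by the glutamate decarboxylases GAD67, the product of Gad1, and GAD65, the product of Gad2. It is pumped into synaptic vesicles by VGAT (Slc32a1), taken up from outside the cell by plasma membrane transporters such as the product of Slc6a11, and degraded by GABA transaminase (Abat). Whether GABA depolarises or hyperpolarises a neuron depends on its chloride gradient, which the importer NKCC1 (Slc12a2) raises and the exporter KCC2 (Slc12a5) lowers. In the embryonic ventral forebrain Gad1 and Gad2 are expressed by GABAergic cells of all the ganglionic eminences, whereas Nkx2-1 marks the MGE.

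The 250 bases upstream of Gad1 and Gad2 are shown because these genes encode the same enzyme activity and their mean differences had opposite signs. Neither difference passed the adjusted threshold used below. The windows were taken from RefSeq on GRCm38.p6, both on the plus strand of chromosome 2. The capitals mark matches to 5 motifs searched on both strands. These were CACTNNAG (a core of NKX2-1 sites), TAATTA (a homeodomain core of the kind LHX proteins bind), CANNTG (the E-box), TGACAG (a MEIS core) and ATGCAAAT (the octamer).
Gad1, chr2:70561879-70562128: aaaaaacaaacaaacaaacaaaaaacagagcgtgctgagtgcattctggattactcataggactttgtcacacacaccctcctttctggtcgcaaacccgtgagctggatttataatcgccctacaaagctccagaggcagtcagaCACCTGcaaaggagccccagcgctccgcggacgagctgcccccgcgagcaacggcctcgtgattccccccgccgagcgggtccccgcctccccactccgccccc
Gad2, chr2:22622077-22622326: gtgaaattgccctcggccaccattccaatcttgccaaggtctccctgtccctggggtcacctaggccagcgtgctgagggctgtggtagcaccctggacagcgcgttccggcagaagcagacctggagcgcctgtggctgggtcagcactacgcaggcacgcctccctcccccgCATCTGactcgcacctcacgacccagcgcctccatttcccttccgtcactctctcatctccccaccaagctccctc
Each window held 1 E-box, at position -104 from the start site in Gad1 and -76 in Gad2, and none of the other 4 motifs. The window of Slc6a11 also held 1 E-box, that of Slc32a1 held 2, and the 2 windows of Slc12a5 held 1 and 2. E-boxes occur in 66.2% of 32851 RefSeq promoter windows of this length, the NKX2-1 core in 12.9%, the MEIS core in 15.9%, TAATTA in 4.84% and the octamer in 1.60%. The letters of an E-box can also lie inside the NKX2-1 core, but E-boxes were the only matches in these windows. These matches describe the letters in the window and say nothing of binding.

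None of the 7 genes passed the threshold of an adjusted p of 0.05 over all 31280 tested probes (limma), in either direction. Over all tested probes 0.614% were called lower and 0.422% higher in the Nkx2-1cKO. At an unadjusted p under 0.05, 2 of the 7 were higher (Gad2 and Slc6a11) and 1 was lower (Abat), where 3.31% of all tested probes were higher and 5.29% lower. These same 3 genes were those whose arrays did not overlap between the groups, against 2.29% of all tested probes with every Nkx2-1cKO array above every WT array and 4.11% with every one below. By the brighter probe of each gene the differences ran from -0.33 for Abat to 0.38 for Slc6a11. The median absolute difference was 0.20, beside 0.15 over all tested probes.

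**Figure D1:**
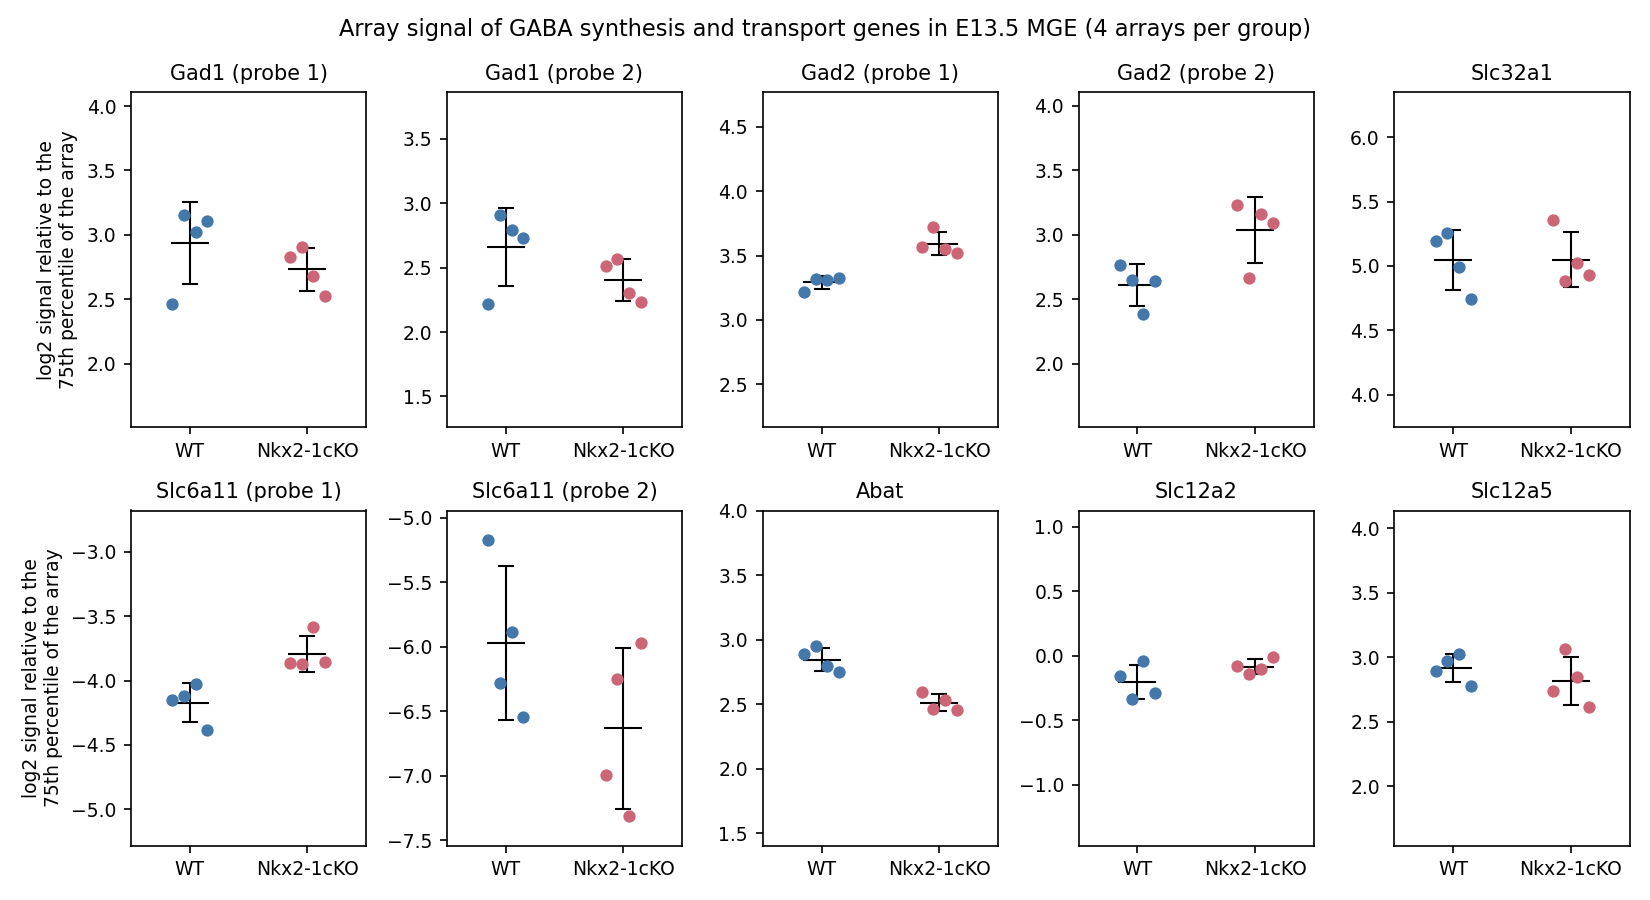
Log2 signal relative to the 75th percentile of the array (y axis, each panel spanning the same range) for the 10 probes, with 1 point per array, 4 WT (blue) and 4 Nkx2-1cKO (red), and the mean and SD in black. Probe 1 is the brighter probe of a gene. The groups are apart for the brighter probes of Gad2 and Slc6a11 and for Abat, and overlap for the other 7 probes.

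For synthesis, Gad1 and Gad2 lay on opposite sides of WT. The brighter Gad1 probe read 2.46, 3.15, 3.02 and 3.11 in WT replicates 1 to 4 and 2.83, 2.90, 2.68 and 2.53 in Nkx2-1cKO replicates 1 to 4. WT replicate 1 was the lowest of the 8 arrays, and the other 3 WT arrays were above all 4 Nkx2-1cKO arrays. The difference was -0.20 (standard error 0.16, 95% interval -0.55 to 0.15, adjusted p = 0.684, limma), or 86.9% of the WT level with an interval of 68.3% to 111%. Without WT replicate 1 it was -0.36 (adjusted p = 0.289, limma), and without WT replicate 2 it was -0.13. The second Gad1 probe had the same array at the bottom, at 2.22, against 2.73 to 2.91 on the other WT arrays and 2.24 to 2.57 on the Nkx2-1cKO arrays. Its difference was -0.26 (standard error 0.15, adjusted p = 0.646, limma), and -0.40 without WT replicate 1. By the brighter probe it was -0.03 within slide 1, which holds WT replicate 1, and -0.38 within slide 2.

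Gad2 read 3.22, 3.32, 3.31 and 3.33 on the WT arrays by its brighter probe and 3.57, 3.72, 3.55 and 3.52 on the Nkx2-1cKO arrays. The lowest Nkx2-1cKO value was thus above the highest WT value (permutation p = 0.0286). The difference was 0.30 (standard error 0.07, 95% interval 0.14 to 0.46), or 123% of WT, with an adjusted p of 0.136 (limma) that misses the threshold. It was 0.36 on slide 1 and 0.23 on slide 2. The second Gad2 probe was higher by 0.42 (standard error 0.13, adjusted p = 0.335, limma). On that probe Nkx2-1cKO replicate 2, at 2.66, lay among the WT arrays, which spanned 2.39 to 2.77, while the other 3 Nkx2-1cKO arrays read between 3.09 and 3.23.

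The ratio of both genes within an array does not depend on how arrays are scaled to each other, and it was examined after the directions had been seen. By the brighter probes the change of Gad2 exceeded that of Gad1 by 0.50 on the log2 scale, or 1.41-fold (permutation p = 0.0571), with the ratio of WT replicate 1 inside the Nkx2-1cKO range. Over all 4 combinations of their probes the excess lay between 0.50 and 0.68, and for 1 combination the groups did not overlap (permutation p = 0.0286). Without WT replicate 1 the groups were apart for all 4 combinations, with an excess between 0.63 and 0.88 (permutation p = 0.0571, the floor for 3 arrays and 4). Where the groups had overlapped, WT replicate 1 was the only WT array in the Nkx2-1cKO range, so this separation follows from the choice of array and adds no support. With the second Gad2 probe, Nkx2-1cKO replicate 2 was the only array of its group with a ratio below that of WT replicate 1. Both genes lie in the brightest class, which on WT replicate 1 read -0.04 from the other arrays. The excess on the brighter probes was 0.39 on slide 1 and 0.61 on slide 2.

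For vesicular loading, Slc32a1 read 5.20, 5.26, 4.99 and 4.74 on the WT arrays and 5.36, 4.88, 5.03 and 4.93 on the Nkx2-1cKO arrays. The 2 groups had the same mean, 5.05, with SDs of 0.23 and 0.21 (n = 4 each), and their arrays overlapped. The 95% interval of the difference was -0.31 to 0.31, or 80.9% to 124% of the WT level (adjusted p = 1.00, limma). Within slide 1 the difference was -0.19 and within slide 2 it was 0.19, so that its sign turned with the slide.

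For uptake, the 2 probes of Slc6a11 disagreed. The brighter read -4.15, -4.12, -4.03 and -4.38 in WT and -3.86, -3.87, -3.58 and -3.85 in the Nkx2-1cKO, where replicate 3 was the highest. The groups did not overlap (permutation p = 0.0286), and the difference was 0.38 (standard error 0.14, 95% interval 0.05 to 0.70, adjusted p = 0.493, limma). It was 0.23 on slide 1 and 0.53 on slide 2. The dimmer probe stood well above background on all 4 WT arrays but on 2 of the Nkx2-1cKO. It ranged from -6.55 to -5.17 in WT, with WT replicate 1 the highest, and from -7.32 to -5.97 in the Nkx2-1cKO, so that the groups overlapped. Its difference of -0.66 (standard error 0.43, adjusted p = 0.658, limma) was -0.40 without WT replicate 1. With the mean of both probes in place of the brighter one the difference was -0.14, so that no direction for Slc6a11 holds over both probes.

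For breakdown, Abat read 2.89, 2.95, 2.79 and 2.75 on the WT arrays and 2.60, 2.46, 2.53 and 2.46 on the Nkx2-1cKO arrays. Every Nkx2-1cKO array was below every WT array (permutation p = 0.0286). The difference was -0.33 (standard error 0.08, 95% interval -0.50 to -0.16), or 79.4% of WT with an interval of 70.5% to 89.4%, and it had the lowest adjusted p of the 7 genes, 0.103 (limma). Abat was past the threshold with slide as a block (adjusted p = 0.0482, limma) and with quantile normalization (difference -0.38, adjusted p = 0.0264, limma), settings in which 0.847% and 0.563% of all tested probes were called lower. It was -0.38 on slide 1 and -0.28 on slide 2, and leaving out single arrays gave -0.37 to -0.30. With centring on the median it was -0.20 (adjusted p = 0.615, limma).

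The chloride importer Slc12a2 read -0.15, -0.34, -0.04 and -0.28 in WT and -0.08, -0.14, -0.10 and -0.01 in the Nkx2-1cKO. The Nkx2-1cKO arrays lay at the upper end of the WT range and overlapped with it. The difference was 0.12 (standard error 0.09, 95% interval -0.08 to 0.33, adjusted p = 0.679, limma), with 0.02 on slide 1 and 0.22 on slide 2. The exporter Slc12a5 read 2.89, 2.97, 3.02 and 2.78 in WT and 2.74, 3.06, 2.84 and 2.62 in the Nkx2-1cKO. The lowest and the highest of these 8 values were both from the Nkx2-1cKO. The difference was -0.10 (standard error 0.11, 95% interval -0.34 to 0.13, adjusted p = 0.749, limma), with -0.12 on slide 1 and -0.08 on slide 2. It was -0.18 without Nkx2-1cKO replicate 2, -0.036 without Nkx2-1cKO replicate 4 and 0.027 with centring on the median. For the pair, the intervals span 94.4% to 125% of WT for Slc12a2 and 79.1% to 109.7% for Slc12a5.

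**Figure D2:**
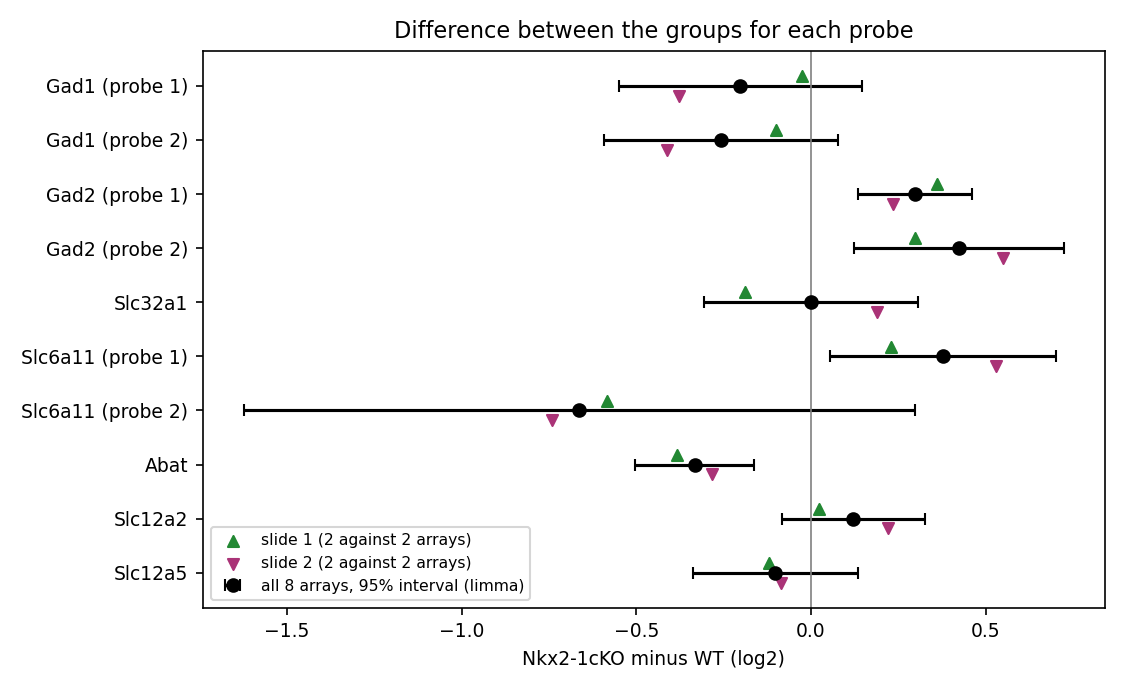
Difference Nkx2-1cKO minus WT on the log2 scale (x axis) for each of the 10 probes (y axis), with the 95% interval of the fit on all 8 arrays in black and the differences within slide 1 and slide 2 as triangles. The intervals of both Gad2 probes, the brighter Slc6a11 probe and Abat leave out 0, none of the 10 passed the adjusted threshold, and Slc32a1 turns its sign between the slides.

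The 7 genes were also set against each other within arrays, by the brighter probe of each, in 21 pairs. In 6 pairs the log ratio did not overlap between the groups, and 8.31% of all pairs of tested genes were apart in this way. The pairs share genes and are not separate observations. Each of the 6 holds Abat, Gad2 or Slc6a11, whose own arrays did not overlap between the groups by the brighter probe. The change of Slc6a11 exceeded that of Abat by 0.71 on the log2 scale. The change of Gad2 exceeded that of Abat by 0.63, and the change of Slc32a1 exceeded that of Abat by 0.33. The change of Abat minus that of Slc12a2 was -0.45. The other 2 pairs set Slc12a5 against Slc6a11 and Gad2, whose changes exceeded its own by 0.48 and 0.40. Each of the 6 had a permutation p of 0.0286. Both pairs with Slc6a11 rest on its brighter probe. By its dimmer probe they turned, to -0.33 against Abat and -0.56 against Slc12a5, with overlapping groups. Adjusted over the 21 pairs the lowest permutation p was 0.1, so that no pair passed the threshold. With a floor of 0.0286, a pair could pass only if many more than 6 pairs were apart. The adjustment therefore decides little about these 6.

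The loss of MGE transcripts in the same samples was of another size. Lhx6, the LIM homeobox gene that acts downstream of Nkx2-1 in MGE interneurons, fell from 3.25 ± 0.07 to -0.96 ± 0.27 (SD, n = 4 each), to 5.43% of WT (adjusted p = 5.00e-07, limma). Within arrays its change minus that of each of the 7 genes lay between -4.58 (Slc6a11) and -3.87 (Abat) on the log2 scale. All 7 of these values share the same Lhx6 probe. Of 15 genes of MGE neurons, with Nkx2-1 and Lhx6 among them, 12 were called lower and none higher, with a median difference of -1.73. Of 12 genes of LGE neurons, 8 were called higher and none lower, with a median of 0.97. Over all tested probes 0.614% were called lower and 0.422% higher (limma). The summed linear signal, in units of the 75th percentile of the array, lay between 71.4 and 74.5 in WT and between 18.9 and 20.5 in the Nkx2-1cKO for the MGE list, and between 46.7 and 66.0 and between 90.4 and 104 for the LGE list. That of the 7 GABA genes lay between 59.9 and 73.6 in WT and between 60.5 and 73.6 in the Nkx2-1cKO. A linear sum leans on the brightest gene, here Slc32a1, with a mean log2 signal of 5.05 in both groups. Higher and lower genes also offset each other in it, so the sum does not describe the single genes.

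Genes that give cells of the ventral forebrain their GABAergic identity were described by a further list. Of its 9 tested genes 1 was called in each direction (limma), where 0.422% of all tested probes were called higher and 0.614% lower. At an unadjusted p under 0.05, 4 were higher and 3 lower, beside 3.31% and 5.29% of all tested probes. The groups were apart for 1 gene that was higher and 3 that were lower, beside 2.29% and 4.11% of all tested probes. The differences of the list ran from -0.64 to 0.99. The gene called higher was Six3, a homeobox gene of LGE progenitors and striatal precursors, with 0.99 (adjusted p = 0.00336, limma). The 4 Dlx genes on the list, homeobox genes that act in GABAergic differentiation, did not pass the threshold, with -0.39 for Dlx1, -0.28 for Dlx2, 0.05 for Dlx5 and 0.33 for Dlx6. The summed signal of the list was between 52.6 and 54.3 in WT and between 41.5 and 45.0 in the Nkx2-1cKO.

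**Figure D3:**
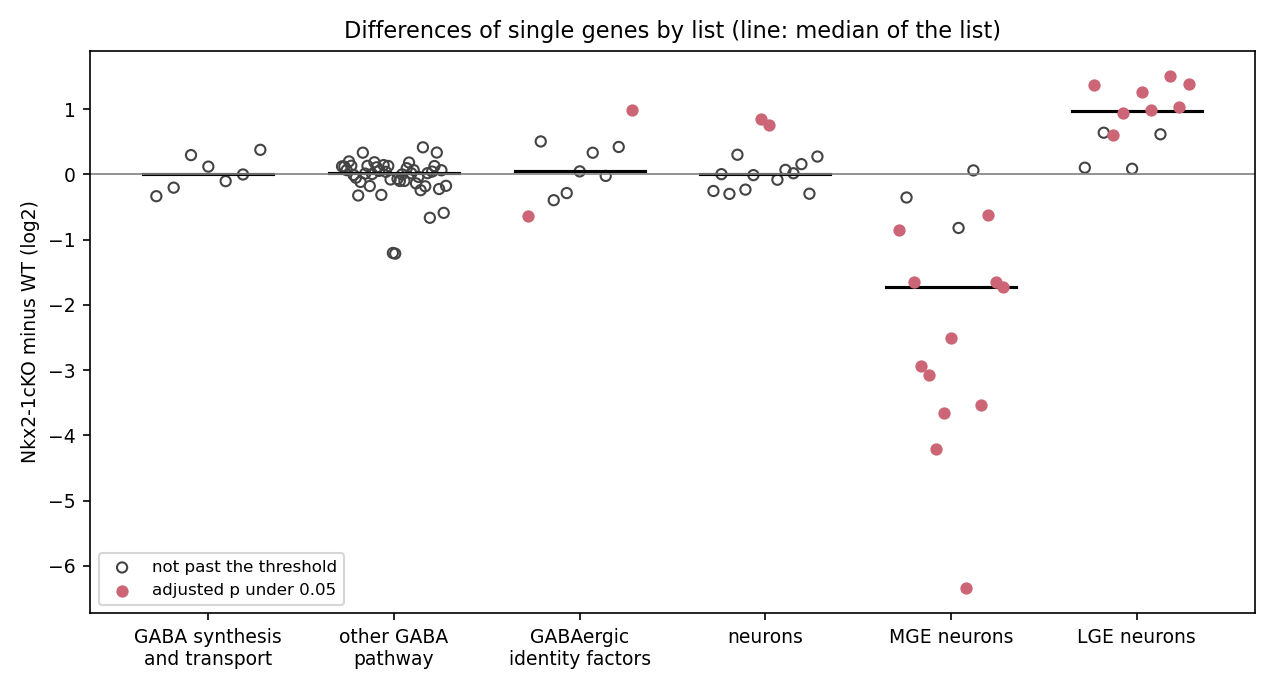
Difference Nkx2-1cKO minus WT on the log2 scale (y axis) of each tested gene, by list (x axis), with filled red points for genes past the adjusted threshold and the median of each list as a line. The 7 GABA genes lie between -0.33 and 0.38 around 0, as do most of the other GABA pathway genes, whereas the MGE list has its median at -1.73 and the LGE list at 0.97.

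Markers of the cell types in the dissected tissue were read in the same way, since most of the 7 genes are neuronal. Over all tested probes 0.422% were called higher and 0.614% lower, and at an unadjusted p under 0.05 3.31% were higher and 5.29% lower (limma). Of 14 tested genes of neurons in general, 12 did not pass the threshold and 2 were higher, the neurofilament genes Nefl (0.85) and Nefm (0.75). At an unadjusted p under 0.05, 3 more were lower, Dcx (-0.25), Syt1 (-0.30) and Elavl4 (-0.30), with adjusted p-values from 0.164 to 0.363 (limma). The summed signal of the neuron list was between 264 and 281 in WT and between 255 and 306 in the Nkx2-1cKO. None of 9 genes of radial glia was called, with sums of 121 to 150 in WT and 113 to 136 in the Nkx2-1cKO, nor any of 8 genes of glutamatergic neurons, with 14.8 to 19.3 and 11.7 to 18.9 (limma; at an unadjusted p under 0.05 2 radial glia genes and 1 glutamatergic gene were lower). Sums overlapped between the groups for endothelium, erythroid cells and microglia too, with none of their 7, 8 and 7 genes called (limma; none at an unadjusted p under 0.05). None of 5 tested choroid plexus genes and none of 8 mesenchyme genes was called (limma; 0 and 1 lower at an unadjusted p under 0.05). The choroid plexus sum was 0.461 on WT replicate 1 and between 0.118 and 0.181 on the other 7 arrays. These are low signals, and on WT replicate 1 the dimmest class of all probes was raised by 1.42 and the next by 1.22. The part of that shift in the choroid plexus sum was not tested. The part of these cell types in the values of the 7 genes was not tested either.

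Beyond these 7 genes, 48 others that act on GABA, its precursors or the chloride gradient were listed, of which 46 had a tested probe. None was called in either direction (limma), and 3 of the 46 were higher and 2 lower at an unadjusted p under 0.05, where 3.31% and 5.29% of all tested probes were. Their median difference was 0.02, beside -0.04 over all tested probes.

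By role, the 5 genes of GABA breakdown and alternative synthesis had differences between 0.06 (Maob) and 0.20 (Aldh9a1), and the 8 genes of glutamate and glutamine supply had differences of at most 0.19 (Glul, the glutamine synthetase). The 3 genes of pyridoxal phosphate, the cofactor of the decarboxylases, had differences of at most 0.13 (Pdxp), and the 3 subunit genes of the vesicular proton pump lay between -0.05 (Atp6v1b2) and 0.13 (Atp6v0a1). The 3 genes of the anchoring and folding of the enzymes lay between -0.17 (Zdhhc17) and 0.13 (Dnajc5). Without WT replicate 1 the differences were 0.014 for Maob, 0.054 for Aldh9a1, 0.050 for Pdxp, -0.026 for Atp6v1b2 and -0.030 for Atp6v0a1, where the sign turned. No gene of these groups was past an unadjusted p of 0.05.

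The 5 genes past the unadjusted threshold were 3 of 14 chloride and bicarbonate carriers and related genes and 2 of 6 tested kinases and partners of such carriers. They were named after their values had been seen, and no test was run on these groups. The differences were 0.42 for Slc4a3, an anion exchanger, 0.34 for Stk39, the kinase SPAK that phosphorylates NKCC1 and KCC2, and 0.33 for Clcn2, a chloride channel. They were -0.32 for Car2, a carbonic anhydrase, and -0.31 for Neto2, a partner of KCC2. Their adjusted p-values lay between 0.488 and 0.555 (limma), so that none of them is a call. Of the 46 tested genes of the list, only Slc4a3 was above WT on every Nkx2-1cKO array and only Neto2 below. Over all tested probes 2.29% and 4.11% were apart in these ways. Without WT replicate 1 the differences were 0.24 for Slc4a3 and 0.20 for Clcn2.

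Another 4 genes of the list had differences of at least 0.5 in size without being called, with group means from -7.57 to -3.51. The differences were -1.21 for Slc12a3 and -1.20 for Slc12a1 (adjusted p = 0.621 and 0.639, limma). Both are kidney cation-chloride carriers, and they were well above background on 2 Nkx2-1cKO arrays each. On both, WT replicate 1 read highest of all arrays, and without it the differences were -0.72 and -0.73. With normexp background correction they turned, to 0.39 and 0.49. Wnk4, a kinase upstream of SPAK, had a difference of -0.59 (adjusted p = 0.588, limma), -0.32 without WT replicate 1 and 0.15 with normexp. Slc6a13, a GABA transporter of the meninges, had -0.66 (adjusted p = 0.688, limma), with WT replicate 4 at -1.97 against -4.87 to -3.51 on the other WT arrays. Without WT replicate 4 the difference was -0.15, and with normexp it was 0.081. The summed signal of 8 mesenchyme genes was 8.05 on that array, against 1.66 to 2.27 on the other WT arrays and 1.71 to 2.32 on the Nkx2-1cKO arrays, and their part in the value of Slc6a13 was not tested.

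The gene whose brightest probe followed each of the 7 most closely was found by Pearson's correlation over the 8 arrays, which share their group and slide. This is a description of 8 values chosen among 14413 genes. Gad1 was followed by the copine gene Cpne4 (r = 0.97), Gad2 by the neurofilament gene Nefh (r = 0.97), Slc32a1 by Cask, a presynaptic scaffold gene (r = 0.95) and Slc6a11 by Cd24a (r = 0.96). Abat was followed by Rassf10 (r = 0.97), Slc12a2 by Jph1 (r = 0.95) and Slc12a5 by Slc4a10 (r = 0.97), a bicarbonate carrier that is also on the list of other GABA pathway genes. The number of genes at r over 0.9 was 113 for Abat, 28 for Gad2, 27 for Slc6a11, 20 for Gad1 and 16 for Slc12a2. It was 7 each for Slc32a1 and Slc12a5. The part of the difference between the groups in these counts was not tested. None of the 7 followers was past the threshold between the groups (limma), and their differences ran from -1.47 for Rassf10 to 0.57 for Nefh.

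**Figure D4:**
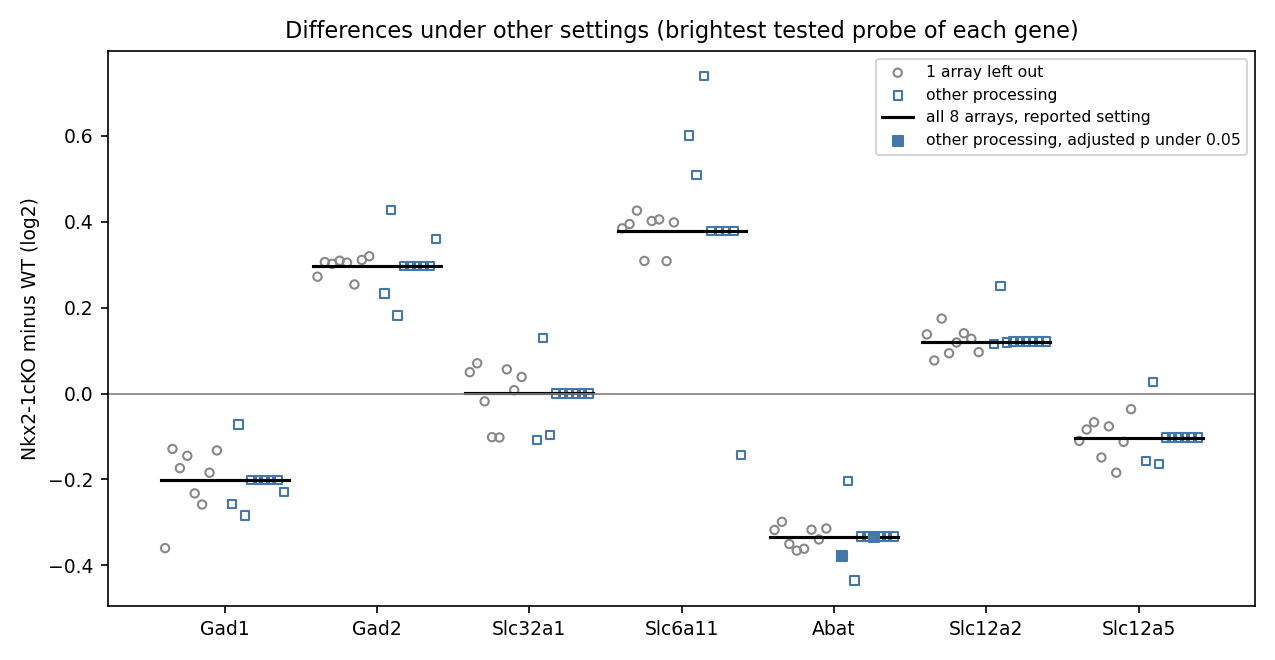
Difference Nkx2-1cKO minus WT on the log2 scale (y axis) of the 7 genes (x axis) as reported (line), with 1 array left out in turn (circles) and under other processing (squares, filled where the adjusted p is under 0.05). Gad1 and Abat stay below 0 and Gad2 and Slc12a2 above it in all settings shown, Slc32a1, Slc6a11 and Slc12a5 cross it, and the 2 filled squares are both Abat.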

How the data were processed

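Gene expression was measured in MGE at E13.5 of 4 WT and 4 Nkx2-1cKO samples, grouped by their titles. The authors deposited the scanner output of each array, in which the intensity of a spot is background-subtracted and detrended within the array by Agilent Feature Extraction (10.7.3.1 per the file headers, 10.1 per the submitters' processing notes) and not scaled between arrays. The steps that followed it are not given in the sources used here. Control and outlier spots were left out, spots of a probe were averaged, and each array's 75th percentile was subtracted from its log2 intensities. Of 41174 probes, 24844 were named by accession through a RefSeq table of GRCm38.p6, none by several symbols and 16330 by none. Tests were run on the 31280 probes that stood well above background on 4 or more arrays (50 values missing), with limma 3.58.1 (R 4.3.3; lmFit, eBayes with trend), with Benjamini-Hochberg adjustment. The number of arrays limits the precision. The brightest tested probe represents a gene.

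Single values were compared by exact two-sided permutation tests. The limma fit, but not the permutation tests, was tried on simulated data. The planted changes were larger than those of the 7 genes, and no difference between slides was simulated. The 7 genes, the lists and the rule for named genes were chosen with earlier results of these data known. Named are the 7 genes, Nkx2-1, genes of the GABA pathway list that were called or differed by at least 0.5, and the closest follower of each of the 7. Other genes of that list, past the unadjusted threshold or at the ends of a role's range, were named after their values were seen. Genes of other lists are named where a comparison turns on them. Alternatives were quantile normalization, median centring, normexp on the median signal (offset 50), no filter or a filter on the mean signal, a block for slide or for replicate number, eBayes without the trend, averaging over the probes of a gene, and dropping single arrays in turn. Slide and scan time coincide. Promoters of Abat and Slc12a2 were not used here, and some genes of the lists are not reported here.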

Additional observations from a re-analysis of the deposited data

Results flagged for a closer look

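A single array lay far from the other 3 of its group in 3 of 34 sets of values, and by chance about 1.7 would do so. The brighter probe of Slc6a11 read -3.58 on Nkx2-1cKO replicate 3, and the other 3 arrays of that group read -3.87 to -3.85. Slc12a3, a dim probe, read -4.34 on WT replicate 1 against -6.47 to -6.22 on the other WT arrays. On Nkx2-1cKO replicate 4, 32733 probes stood well above background, compared with 29271 to 29823 on the remaining Nkx2-1cKO arrays.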

How the results depend on the processing

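Gad1, Gad2, Abat and Slc12a2 kept their direction against 0 in all alternatives that were run, and none of the 7 genes was called higher in any. Their sizes moved. With other processing Gad1 ranged from -0.28 (normexp) to -0.072 (centring on the median), Gad2 from 0.18 (normexp, adjusted p = 0.871, limma) to 0.43 (centring), Abat from -0.43 (normexp) to -0.20 (centring), and Slc12a2 from 0.11 (quantile normalization) to 0.25 (centring). Slc6a11 was 0.60 with quantile normalization and 0.74 with normexp. Abat alone was called lower, so that 1 of the 7 genes was lower with quantile normalization (-0.38, adjusted p = 0.0264, limma) and 1 with slide as a block (-0.33, adjusted p = 0.0482). Over its alternatives its adjusted p ranged from 0.0264 to 0.615. Slc32a1 changed sign with quantile normalization (-0.11) and normexp (-0.10), and leaving out single arrays gave -0.10 to 0.070. Slc6a11 changed sign with the mean of its probes (-0.14), its dimmer probe with normexp (0.57), and Slc12a5 with centring on the median (0.027). With the dimmer Slc6a11 probe, an alternative chosen after seeing the data, its change less that of Abat turned to -0.33 and less that of Slc12a5 to -0.56. Normexp also turned Slc6a13 (0.081), Slc12a1 (0.49), Slc12a3 (0.39) and Wnk4 (0.15). The cause was not tested. The median difference of all tested probes was -0.04 as reported, 0.09 with centring on the median and 0.18 with normexp, so that changes in these settings are relative to that shift. With normexp, Gad2 (0.18) lay at that median and Slc12a2 (0.12) below it. The brighter Slc6a11 probe could not be fitted under the filter on the mean signal, which it did not pass.

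Over all probes 132 were higher and 192 lower, against 65 and 91 with normexp, 98 and 115 with centring on the median, 209 and 265 with slide as a block, and 64 to 120 and 131 to 174 with single arrays left out. With the replicate block 8 probes were higher and 65 lower, and it called none of the 7 genes, with a lowest adjusted p of 0.525 (Abat, -0.33). Arrays of the same number did not deviate together (correlations of their deviations from -0.48 to -0.19), and the samples share only a number. The 4 arrays per group limit what could be called. The median standard error of a difference was 0.15 over all tested probes, and those of the 7 genes ran from 0.07 (Gad2) to 0.16 (Gad1). That of the dimmer Slc6a11 probe was 0.43.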
